A study of Mus musculus with 3 samples.

Results

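The ligands, receptors, antagonists and core signal carriers of the Wnt pathway were examined in hearts from male wild-type (WT) mice, 12 weeks of age. Poly(A) RNA was sequenced in 3 libraries that form a single group, so no treated or mutant heart was compared. The labels give neither a mouse strain nor whether each library came from a separate animal, and the spread between libraries may therefore be technical. Members were the rows whose gene symbol starts with Wnt, Fzd, Sfrp, Dkk, Rspo or Dvl followed by a digit, together with 12 further named genes of the pathway. The table held 47 such members among 16587 rows.

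Wnt proteins are secreted ligands that bind a Frizzled receptor and a co-receptor, Lrp5 or Lrp6. The receptor complex recruits Dishevelled, which blocks the destruction complex of Axin, Apc and kinases, so that beta-catenin accumulates and acts in the nucleus with TCF/LEF factors. Secreted Frizzled-related proteins and Wif1 bind ligands, most Dkk proteins occupy the co-receptor, and the ubiquitin ligases Znrf3 and Rnf43 remove Frizzled receptors unless R-spondins hold them back. The pathway is known for its part in forming the heart and is described as mostly quiet in the healthy adult organ.

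The libraries held between 24914479 and 26398140 counts. Cardiomyocyte markers, among them Myh6 and Tnnt2, were detected for 8 of 8 genes and summed to between 74354 and 79870 CPM (counts scaled to a total of 1000000 per library), while 0 of 7 lymphocyte markers were detected. The detection limit was 1 CPM, to be reached in each of the libraries. Levels of different genes are compared as TPM, in which counts are first divided by exon length, given as mean ± SD over the libraries (n = 3). In tissue RNA, fewer cells of a type and less RNA per cell cannot be told apart. Of 5 atrial markers 3 were detected, but Myl7 had 0, 1 and 8 counts and Sln 0, 0 and 1. The share of atrial tissue was not tested, and the levels may not stand for the whole heart.

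Of the 47 members, 28 were detected, which is 59.6%, against 71.3% of all rows. The members together took 0.0711 ± 0.00506% of the counts, and their median level was 1.69 TPM against 7.32 TPM over all rows with a length. Detection was uneven between roles. All 3 Dishevelled genes, both co-receptors, all 3 genes of the Axin and Apc group and 9 of 10 Frizzled genes were detected, against 4 of 13 Wnt ligands, 4 of 7 secreted antagonists, 2 of 4 TCF/LEF factors, 1 of 2 receptor ubiquitin ligases and 0 of 3 R-spondins. Wnt1, Wnt7a and Rspo2 had 0 counts in every library, which allows levels of at most 0.114 to 0.120 CPM, the worth of 3 counts. Such limits cover counting error only.

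**Figure D1:**
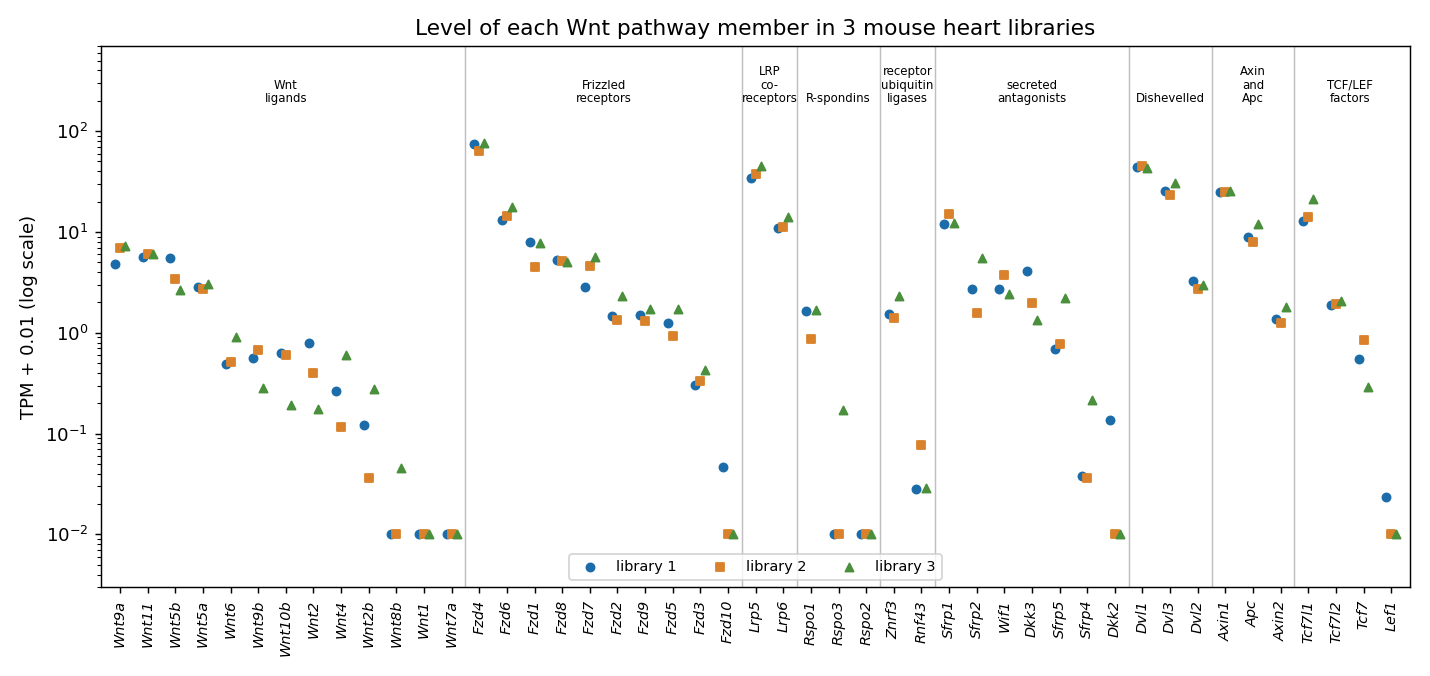
TPM of each of the 47 members in the 3 libraries on a log axis, with 0.01 added so that values of 0 can be drawn, grouped by role and ordered by mean level within a role. Fzd4 is the highest member in every library, and 9 of 13 Wnt ligands lie below the detection limit.

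For a few members that the results turn on, the 250 bases upstream of the RefSeq transcription start are shown (build GRCm38.p6, read 5′ to 3′ on the gene's strand). Fzd4, the highest member, lies at chr7:89404116-89404365 on the plus strand. Tcf7l1, the highest TCF/LEF factor, lies at chr6:72789046-72789295 on the minus strand. Wnt7a, with 0 counts, lies at chr6:91411354-91411603 on the minus strand. In these 3 sequences the capitals mark CG dinucleotides, of which there are 25, 29 and 34. In Wnt11, a detected ligand, at chr7:98834862-98835111 on the plus strand, the capitals mark letters that TCF/LEF factors are known to recognise, here on the opposite strand.
Fzd4: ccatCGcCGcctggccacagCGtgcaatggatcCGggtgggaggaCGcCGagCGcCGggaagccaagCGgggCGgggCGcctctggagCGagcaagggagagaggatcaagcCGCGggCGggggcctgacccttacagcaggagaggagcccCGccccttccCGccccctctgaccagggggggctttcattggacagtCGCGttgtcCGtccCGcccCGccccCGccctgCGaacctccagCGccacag
Tcf7l1: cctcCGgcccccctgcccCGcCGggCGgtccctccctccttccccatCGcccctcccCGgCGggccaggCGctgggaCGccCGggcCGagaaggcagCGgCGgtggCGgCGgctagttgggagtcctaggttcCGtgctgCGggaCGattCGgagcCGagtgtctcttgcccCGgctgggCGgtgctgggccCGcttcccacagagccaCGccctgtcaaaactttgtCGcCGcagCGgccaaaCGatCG
Wnt7a: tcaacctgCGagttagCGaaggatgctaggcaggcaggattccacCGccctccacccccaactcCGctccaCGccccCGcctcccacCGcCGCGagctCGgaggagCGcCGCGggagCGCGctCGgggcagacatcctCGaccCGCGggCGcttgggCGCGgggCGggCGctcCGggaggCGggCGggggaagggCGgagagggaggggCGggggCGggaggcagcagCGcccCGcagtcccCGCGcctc
Wnt11: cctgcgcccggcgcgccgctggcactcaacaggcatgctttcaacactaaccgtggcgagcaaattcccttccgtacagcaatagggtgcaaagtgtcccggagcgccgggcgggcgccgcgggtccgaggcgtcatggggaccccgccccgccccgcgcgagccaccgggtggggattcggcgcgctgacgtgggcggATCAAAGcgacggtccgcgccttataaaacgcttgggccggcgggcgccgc

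RefSeq windows were at hand for 32 of the 47 members. The highest CG count per member had a median of 25.5 in the 16 detected members, ranging from 12 to 48, and of 22 in the 16 that were not detected, ranging from 5 to 44, so the ranges overlapped over most of their length. Over single windows the median was 21 for members and 6 for all genes. The letters CTTTG followed by a pair of A or T in any order, searched on both strands, were found in 5 of 41 member windows (12.2%) and in 14.8% of 32851 windows of all genes. The windows belonged to Fzd7, Lef1, Wnt5b, Wnt11 and Tcf7l2, of which Lef1 was not detected. The Axin2 window, upstream of a gene known to be induced by beta-catenin, held none of these letters.

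Among the ligands, 4 carried most of the signal. Wnt9a, a ligand known from endocardium and joints, had 136, 207 and 196 counts in libraries 1, 2 and 3 (6.33 ± 1.33 TPM). Wnt11, a ligand of the beta-catenin-independent branch that helps shape the outflow tract, had 197, 227 and 201 counts (5.90 ± 0.256 TPM). These levels overlapped between the libraries. Wnt5b had 124, 82 and 57 counts (3.86 ± 1.47 TPM), and its relative Wnt5a, the prototype beta-catenin-independent ligand, had 188, 192 and 194 counts (2.87 ± 0.176 TPM). Library 1 was highest for Wnt5b, while Wnt5a and Wnt11 were even across libraries.

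The summed ligand level was 21.6, 21.4 and 21.4 TPM in the respective libraries, although Wnt9a was lowest and Wnt5b highest in library 1. Below the limit, Wnt9b had 21, 27 and 10 counts, Wnt10b 18, 18 and 5, and Wnt2 15, 8 and 3, with library 3 lowest for each. Wnt6 had 9, 10 and 16 counts, Wnt4 9, 4 and 20, and Wnt2b 4, 1 and 9, with library 3 highest for each. Wnt8b had 0, 0 and 1 counts. Wnt3, Wnt3a, Wnt7b, Wnt8a, Wnt10a and Wnt16 were not analysed here.

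**Figure D2:**
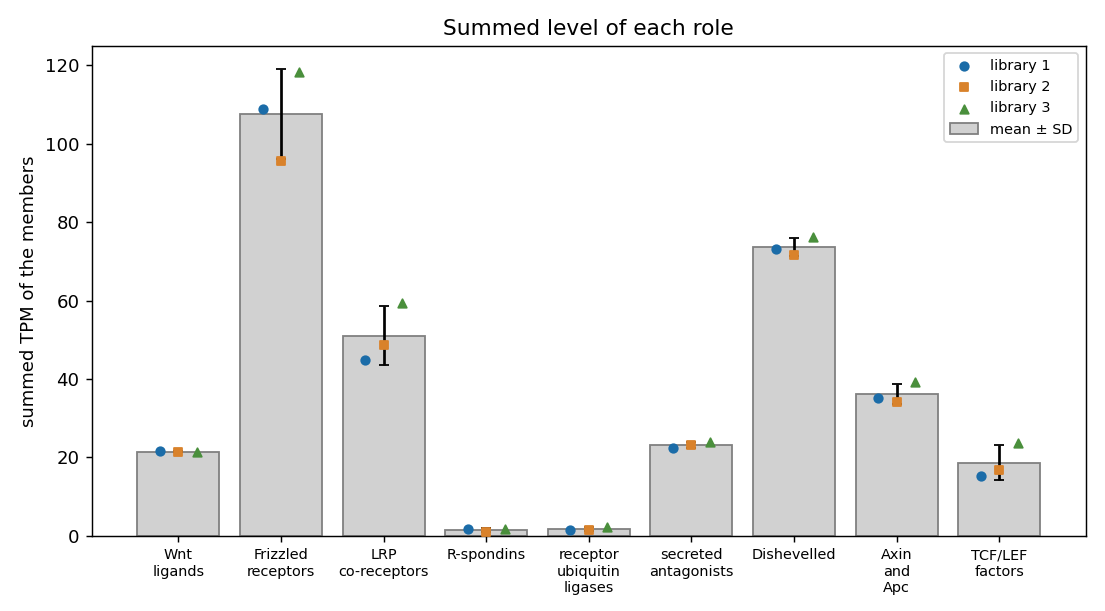
Summed TPM of the members of each role, with bars for the mean, error bars for the SD and points for the 3 libraries. Frizzled receptors sum to 95.5 to 118 TPM, and Wnt ligands and secreted antagonists to 21.4 to 24.0 TPM.

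The Frizzled receptors summed to 108 ± 11.5 TPM, of which a single gene gave most. Fzd4, the receptor for Norrin and several Wnts that is known for its part in blood vessels, had 4282, 3817 and 4136 counts (71.4 ± 7.29 TPM), or 66.5 ± 2.37% of the family's TPM. It stood above 88.6% of all rows with a length in TPM. Fzd6, a receptor known from planar cell polarity, came next with 536, 627 and 685 counts (15.0 ± 2.30 TPM). No library of Fzd6 reached the lowest library of Fzd4.

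Fzd1, Fzd7 and Fzd2 are closely related receptors. Fzd1 had 286, 168 and 261 counts (6.72 ± 1.98 TPM), Fzd7 109, 187 and 208 (4.36 ± 1.43 TPM) and Fzd2 45, 44 and 68 (1.69 ± 0.527 TPM). Library 2 was lowest for Fzd1 and library 1 for Fzd7, so that the order of these receptors was not the same in every library. The related pair Fzd8 and Fzd5 had 265, 276 and 244 counts (5.14 ± 0.0871 TPM) and 72, 57 and 96 counts (1.29 ± 0.405 TPM). Fzd9 (29, 27 and 32 counts) and Fzd3 (32, 37 and 43 counts) were low in each library, and Fzd10 had 1, 0 and 0 counts.

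Co-receptor levels were higher for Lrp5, known for its part in bone and retinal vessels, than for Lrp6. Lrp5 had 2808, 3279 and 3575 counts (38.9 ± 5.88 TPM) and Lrp6 1266, 1389 and 1546 counts (12.1 ± 1.68 TPM). Both were lowest in library 1 and highest in library 3, and their ratio was nearly the same in each library. Lrp6 was lower by a log2 ratio of -1.69 ± 0.05, which is 3.22-fold. The ratio was -1.27 with the longest transcript and -1.20 with no length correction, shifts larger than this SD.

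R-spondins were scarce, and so was Rnf43. Rspo1 had 27, 15 and 26 counts (1.39 ± 0.457 TPM), Rspo3 had 0, 0 and 4, and Rspo4 was not analysed here. Of the ligases that R-spondins restrain, Znrf3 had 103, 99 and 147 counts (1.74 ± 0.490 TPM) and Rnf43 1, 4 and 1. The R-spondin receptors, which lie outside the member rule, were uneven, with Lgr6 at 18.4 ± 2.0 TPM and Lgr4 at 11.8 ± 2.50 TPM against 6, 1 and 0 counts of Lgr5, known as a stem cell marker in the gut.

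Secreted antagonists were led by Sfrp1, a Frizzled-related protein that binds Wnts, with 445, 595 and 437 counts (13.2 ± 1.70 TPM), or 56.9 ± 7.40% of the TPM of this role. Sfrp2 had 50, 30 and 95 counts (3.25 ± 2.01 TPM), Wif1, the Wnt inhibitory factor, 56, 81 and 47 (2.94 ± 0.681 TPM), and Dkk3, a divergent Dkk that is not known to block the co-receptors, 116, 60 and 36 (2.46 ± 1.43 TPM). Their libraries overlapped, so the order of these 3 antagonists was not fixed. Sfrp5 had 11, 13 and 34 counts, Sfrp4 1, 1 and 7, and Dkk2 4, 0 and 0. Dkk1 and Dkk4 were not analysed here.

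Antagonists and ligands reached nearly the same sum. The antagonists' sum was 22.4, 23.1 and 24.0 TPM, and its log2 ratio to the ligands' sum was 0.11 ± 0.05. The sign of this ratio turned with other length corrections, to -0.0060 with the longest transcript and -0.063 with none. The antagonists' sum leaves out Frzb, a secreted Frizzled-related protein (3.03 ± 0.677 TPM) whose symbol lies outside the member rule. It also leaves out Sost (2.89 ± 0.585 TPM), which is in the list of co-receptors and decoys, and a ratio with Sost was not computed. With Frzb added, an alternative chosen after seeing the data, the ratio was 0.28, and it was 0.17 with the longest transcript and 0.10 with no length correction. The antagonists' sum keeps Dkk3 (2.46 TPM), which is not known to block the co-receptors, and a ratio without Dkk3 was not computed.

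Inside the cell, Dvl1 and Dvl3 were high and Dvl2 was low. Dvl1 had 1886, 2046 and 1723 counts (44.2 ± 1.41 TPM), Dvl3 1383, 1352 and 1585 (26.5 ± 3.71 TPM) and Dvl2 174, 152 and 150 (2.96 ± 0.289 TPM). No library of Dvl2 came near the other Dishevelled genes. In GENCODE M21, 18.3% of the exon bases of Dvl2 lie opposite exons of its neighbours, among them Acadvl, an enzyme of fatty acid oxidation. Whether the counting used strand is not stated, so reads there cannot be assigned.

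Axin1, the constant scaffold of the destruction complex, had 812, 860 and 784 counts (25.1 ± 0.221 TPM). Axin2, its relative that beta-catenin is known to induce as feedback, had 64, 61 and 79 counts (1.46 ± 0.283 TPM). Axin1 exceeded Axin2 by 4.11 ± 0.26 on the log2 scale, or 17.3-fold, with the same direction in every library. The difference was 3.76 with the longest transcript and 3.59 with no length correction. Apc, the large scaffold that binds beta-catenin, had 1216, 1146 and 1569 counts (9.61 ± 2.17 TPM), highest in library 3.

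The TCF/LEF factors were led by Tcf7l1, known mainly as a repressor of target genes. Tcf7l1 had 428, 496 and 677 counts (16.1 ± 4.60 TPM) and Tcf7l2 139, 152 and 145 counts (1.94 ± 0.0910 TPM). Tcf7l1 was higher in each library, and Tcf7l2 stood at a log2 ratio of -3.01 ± 0.32 to it, which is 8.05-fold lower. The ratio was -2.14 with the longest transcript and -1.85 with no length correction. Tcf7, known from T cells, had 12, 20 and 6 counts, and Lef1, a factor of lymphocytes and hair follicles, 1, 0 and 0. The lymphocyte markers summed to only 0.758 to 1.32 CPM.

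**Figure D3:**
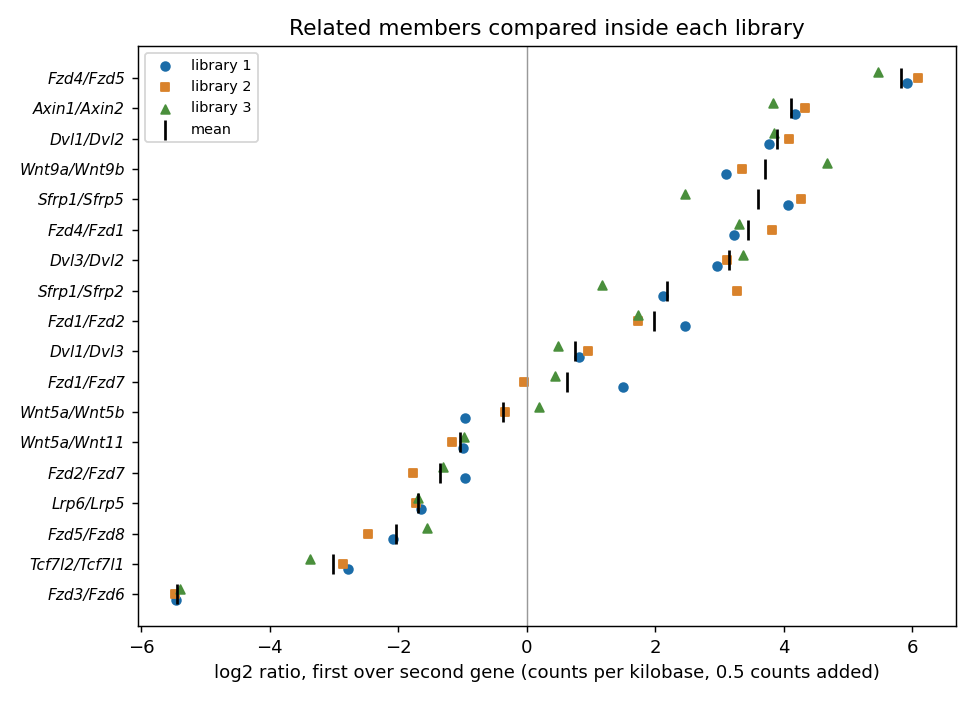
Log2 ratio of counts per kilobase, with 0.5 counts added, between related members inside each of the 3 libraries, with a bar at the mean. Shown are the 18 listed pairs whose genes both had at least 10 counts in every library. The pairs were chosen with earlier results of these data known. The libraries lie on both sides of 0 for Fzd1/Fzd7 and Wnt5a/Wnt5b and on the same side for the other 16 pairs.

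The pairs were chosen with earlier results of these data known, so the count that follows is a description and not a test. Of the 18 pairs with enough counts, 16 kept their direction in every library and had a mean more than 2 SD from equality. The exceptions were Fzd1/Fzd7 (1.5, -0.04 and 0.44) and Wnt5a/Wnt5b (-0.96, -0.34 and 0.20). No p is given, since the smallest that exact sign flips over 3 libraries allow is 0.25. Fzd4 exceeded Fzd1 by 3.45 ± 0.33, or 10.9-fold, and Fzd5 by 5.83 ± 0.33. Sfrp1 exceeded Sfrp2 by 2.19 ± 1.05 and Sfrp5 by 3.60 ± 0.99, both least in library 3. Wnt9a exceeded Wnt9b by 3.71 ± 0.84, and Fzd3 stood at -5.44 ± 0.05 to Fzd6. Dvl1 exceeded Dvl3 by 0.75 ± 0.24, but by 0.13 with the longest transcript. With no length correction Fzd3/Fzd6 was -4.03, Fzd4/Fzd1 4.13, Sfrp1/Sfrp5 4.80 and Wnt5a/Wnt11 -0.12 in place of -1.04, and Wnt5a/Wnt5b turned to 1.19.

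When the 28 detected members were placed in order of TPM, 22 of 27 neighbouring pairs had overlapping libraries. The steps without overlap lay below Fzd4, below Lrp5, below Axin1, below Wnt11 and between Fzd5 and Fzd3, the lowest. The step below Wnt11 holds for its neighbour Fzd8 but is no break in the order. Further down, Fzd7 reached 5.68 TPM in library 3, above Wnt11 at 5.61 TPM in library 1. After Fzd4 the order ran through Dvl1, Lrp5, Dvl3, Axin1, Tcf7l1, Fzd6, Sfrp1, Lrp6 and Apc, whose levels fell from 44.2 to 9.61 TPM.

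The libraries were then compared with each other. A negative binomial fit over all genes in edgeR asked which genes differed between libraries more than genes of the same level. After Benjamini-Hochberg adjustment over all 12521 genes tested, 0 of the 31 members that passed the filter on low counts were called. The share over all genes was 0.591%. By the DESeq2 trend 0 members were called, against 0.543% of all genes. Smaller differences in genes this low can be missed. At an unadjusted p under 0.05, 6 of the 31 members (19.4%) were found by edgeR, against 5.39% of all genes. The DESeq2 trend found 4, but its unadjusted share over all genes was not computed, so that count has no background. The other 16 members were too low to be tested. The median SD of log2 CPM was 0.23 for the members tested and 0.14 for all genes tested.

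The 6 members were Dkk3, Sfrp2, Tcf7l1, Apc, Fzd1 and Sfrp5. Dkk3 stood at 4.07, 1.98 and 1.33 TPM, a 3.17-fold range in CPM (edgeR adjusted p = 0.434). Its SD of log2 CPM was 0.83, where counting error alone gives 0.19. Sfrp2 stood at 2.74, 1.55 and 5.46 TPM (adjusted p = 0.569), Tcf7l1 at 12.9, 14.0 and 21.3 TPM (0.606), Apc at 8.89, 7.89 and 12.0 TPM (0.723), Fzd1 at 8.03, 4.44 and 7.69 TPM (0.831) and Sfrp5 at 0.682, 0.759 and 2.21 TPM (0.850). At the other end, Axin1, Tcf7l2, Wnt5a and Fzd8 had an SD of log2 CPM of 0.03 to 0.05, no more than counting error.

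**Figure D4:**
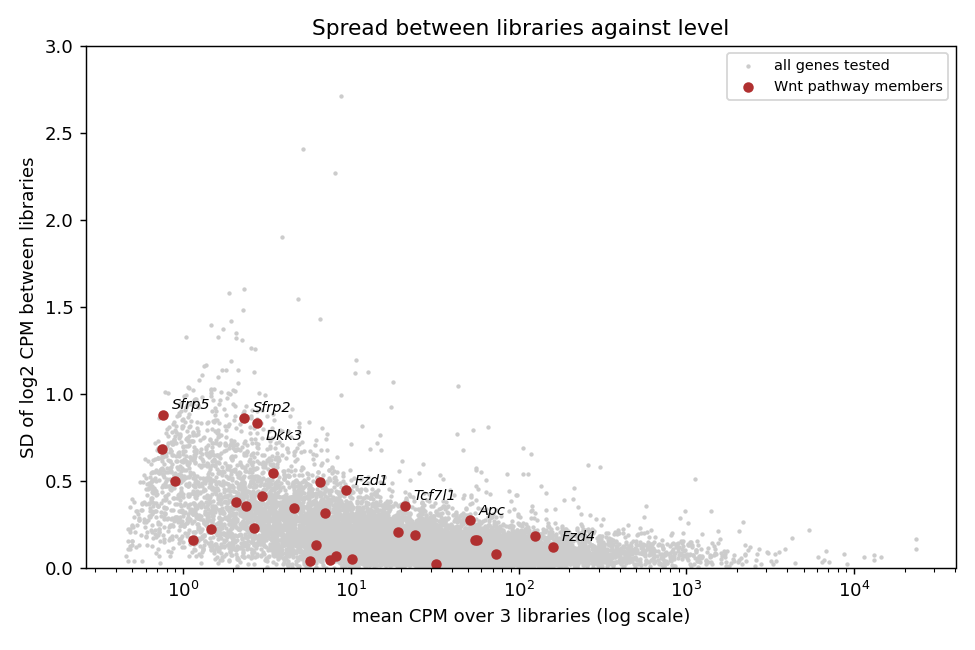
SD of log2 CPM between the 3 libraries against mean CPM on a log axis, for all 12521 genes tested (grey) and the 31 members tested (red). Names mark Fzd4 and the 6 members with an unadjusted edgeR p under 0.05, among which Sfrp5, Sfrp2 and Dkk3 have SDs of 0.83 to 0.88.

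Library 3 was highest for 18 of the 31 members tested (58.1%), against 38.6% of all genes tested. Among the low members, Sfrp2, Sfrp5, Sfrp4, Wnt4, Wnt2b, Wnt6 and Rspo3 had their most counts there, while Wnt9b, Wnt10b, Wnt2 and Tcf7 had their fewest. Sfrp4, Wnt2b and Rspo3 stayed under 10 counts in every library, too few to rank the libraries. Of those with most counts there, only Sfrp2 and Sfrp5 passed the filter and were tested, and neither was called after adjustment. Of 11 markers of the mesothelium and epicardium, the cell layers covering the heart, 8 were highest in the same library. Msln had 0, 0 and 107 counts, Upk3b 2, 0 and 212 and Lrrn4 0, 0 and 42, and Upk1b, Krt19 and Muc16 were also at 0 in libraries 1 and 2. The other 3 were highest in library 1, namely Wt1 with 506, 395 and 252 counts, Aldh1a2 with 278, 188 and 241 and Krt8 with 17, 2 and 8. The whole list had 3 detected genes and summed to 34.6, 25.6 and 43.2 CPM. Fibroblast, mural cell and endothelial markers also summed highest in library 3, with 8 of 8 detected in each list. Taken singly, 6 of 8 fibroblast, 7 of 8 mural cell and 5 of 8 endothelial markers were highest there. The fibroblast markers Dcn and Dpt and the endothelial marker Fabp4 were highest in library 2. Kcnj8 of the mural cells and the endothelial markers Emcn and Egfl7 were highest in library 1. By edgeR, 2 of the fibroblast markers, Col1a1 and Col3a1, were called as differing between libraries. Fibroblast markers reached 1365, 1634 and 1724 CPM, mural cell markers 1398, 1511 and 1725 CPM and endothelial markers 2517, 2638 and 2780 CPM. The part of these cells in the members' counts was not tested.

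Dkk3, Wnt5b and Wnt2 were highest in library 1 and lowest in library 3. Neither Dkk3 nor Wnt5b was called as differing between libraries (edgeR adjusted p = 0.434 and 0.999), and Wnt2 was too low to be tested. Immediate early genes summed to 401, 324 and 223 CPM in libraries 1, 2 and 3, with 8 of 10 detected, and liver markers to 126, 3.83 and 7.43 CPM, with 1 of 8 detected. Erythroid markers summed to 2221, 1047 and 1697 CPM, with 5 of 5 detected. Liver and erythroid sums were thus lowest in library 2, not in library 3. All 8 liver markers, all 5 erythroid markers and 6 of 10 immediate early genes were highest in library 1. The other 4 immediate early genes, Fos, Jun, Egr1 and Ier2, were highest in library 2. By the same edgeR test 6 of 10 immediate early genes, all 4 liver markers tested and all 5 erythroid markers differed between libraries. Nppa, the gene for atrial natriuretic peptide, had 11640, 5952 and 5797 counts (edgeR adjusted p = 7.43e-09). It was the 1 gene called among 3 tested of 5 atrial markers. Myl4 (130, 50 and 117 counts) was also highest in library 1. By contrast, Gja5 (321, 298 and 363), Myl7 (0, 1 and 8) and Sln (0, 0 and 1) were highest in library 3. The part of all these markers in the counts of Dkk3, Wnt5b and Wnt2 was not tested.

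**Figure D5:**
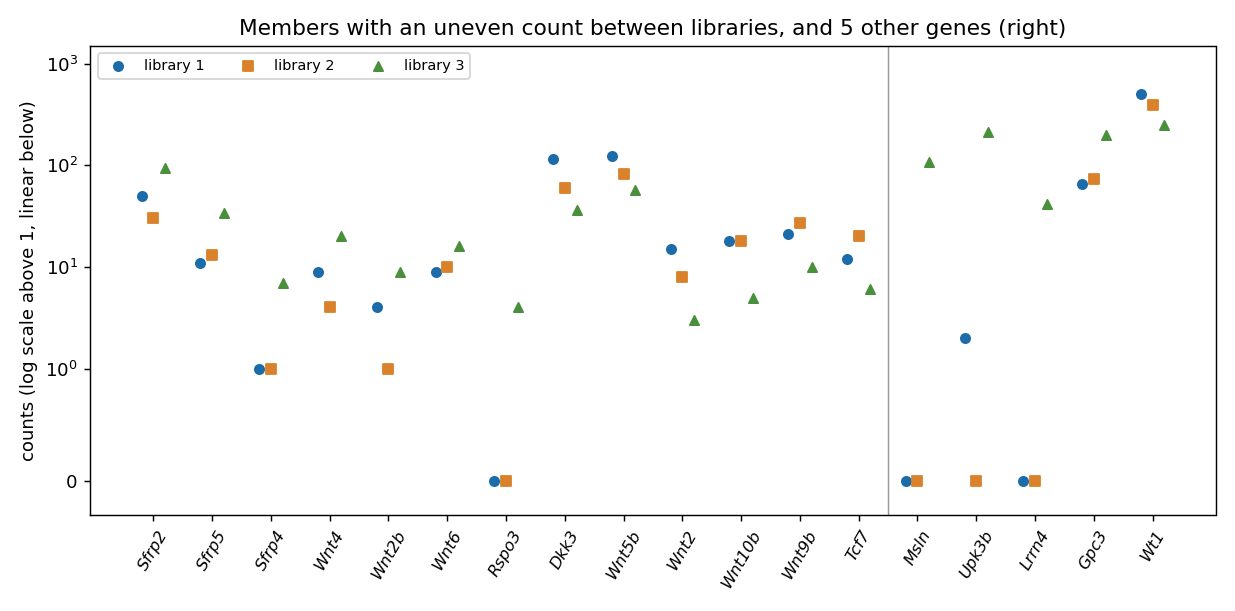
Counts in each of the 3 libraries for 13 members whose counts were uneven, chosen after their values were seen, and for 5 other genes to the right of the line, on an axis that is logarithmic above 1 count. Sfrp2, Sfrp5, Sfrp4, Wnt4, Wnt2b, Wnt6 and Rspo3 are highest in library 3, as are Msln, Upk3b, Lrrn4 and Gpc3. Wt1 goes the other way, with 506, 395 and 252 counts. The 5 other genes were picked from the lists and do not stand for them. Of the 11 mesothelial and epicardial markers, 8 were highest in library 3 and 3 in library 1. Sfrp4, Wnt2b and Rspo3 stay under 10 counts in every library, too few to rank the libraries.

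Other genes of the pathway were taken from 6 lists of 92 genes, of which 91 were in the table and 77 were detected. None of the 79 tested differed between libraries by edgeR or the DESeq2 trend after adjustment, against 0.591% and 0.543% of all genes, and 4 (5.06%) had an unadjusted edgeR p under 0.05, against 5.39% of all genes. All 18 signal carriers were detected, among them Ctnnb1, which encodes beta-catenin (275 ± 24.8 TPM), the phosphatase subunit Ppp2ca (105 ± 5.73 TPM) and the kinase Csnk1a1 (58.3, 57.0 and 64.6 TPM). Gsk3a (117 ± 3.17 TPM) stood above Gsk3b (16.9 ± 0.824 TPM), the kinases that mark beta-catenin for destruction. All 15 nuclear partners were detected, with Ctbp1 at 136 ± 1.46 TPM and Tbl1x at 25.1 ± 3.35 TPM. Tle5, a short relative of the Groucho corepressors, had no length by symbol and stood at 1182 ± 32.0 CPM.

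For ligand release, 5 of 6 genes were detected. Wls, the carrier that escorts Wnts to the cell surface, stood at 16.9 ± 0.614 TPM and Porcn, which attaches their lipid, at 3.50 ± 0.513 TPM. The retromer subunits Vps26a and Vps35 stood at 86.6 ± 2.22 and 37.4 ± 1.78 TPM, and Notum, which removes the lipid, had 4, 0 and 4 counts.

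Of 23 co-receptors and decoys, 15 were detected. Kremen1, a receptor for Dkk proteins, stood at 63.2 ± 3.88 TPM and the Wnt receptor Ryk at 33.7 ± 4.49 TPM, while Ndp, the gene for Norrin, had 0, 1 and 1 counts and Cthrc1 6, 0 and 1. Tspan12, which joins Fzd4 and Lrp5 in the Norrin receptor, stood at 24.0 ± 2.65 TPM. Gpc3, a cell surface proteoglycan, had 65, 73 and 200 counts with an edgeR adjusted p of 0.0514, just short of the threshold.

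The planar cell polarity list had 15 of 17 genes detected, among them the small GTPase Rhoa (164 ± 6.13 TPM), the formin Daam1 (31.5 ± 4.45 TPM) and the Rhoa kinase Rock2 (24.5 ± 1.61 TPM). Celsr3 had 1, 2 and 1 counts. Of 15 genes known as beta-catenin targets in other tissues, 10 were detected. Ccnd1, a cyclin with many inputs, was at 67.8 ± 7.46 TPM, Myc at 15.2 ± 2.62 TPM and Bambi at 8.44 ± 0.506 TPM. The feedback inhibitors Nkd1 and Nkd2 were at 2.73 ± 0.226 and 1.40 ± 0.302 TPM, while Sp5 had 0, 0 and 1 counts and Ascl2 1, 2 and 0.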

How the data were processed

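For 3 libraries the authors deposited raw counts by gene symbol, all whole numbers. Per the submitters' processing notes the tools were HISAT2 2.0.4, Bowtie2 2.2.5 and RSEM on build GRCm39, without their roles. RSEM estimates counts, so the deposited counts may be rounded estimates that divide reads between similar genes.

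Exon lengths came from GENCODE M21 by symbol, as the union of exons, for 16077 rows (96.9%) and all 47 members. Of member 50-mers, 16.4% in Fzd5, 13.7% in Lef1, 13.0% in Dvl2, 12.0% in Sfrp2 and 11.6% in Rspo3 also occurred in another gene's transcripts, mostly antisense ones, and 7.46% or less in the others.

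Spread between libraries was tested with edgeR 4.0.16 (R 4.3.3): an intercept-only negative binomial fit with TMM and trended dispersion, the deviance against chi-square, and Benjamini-Hochberg adjustment at 0.05. In counts simulated for 12429 genes with 3 libraries, 51 of 100 genes changed 2-fold in 1 library and 100 of 100 changed 4-fold were called, with 7 false calls. The changed genes were drawn from all genes above 1 CPM and simulated with the fit's own dispersions. Recovery at the members' levels was not measured, and their median was 2.39 CPM against 11.4 CPM over all rows. DESeq2 1.42.0 gave an alternative trend, with a Pearson statistic.

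Members, lists and pairs were chosen with earlier results of these data known. All members are named, and from each list up to 3 of the highest genes in CPM, some below the limit, and genes that a result turns on.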

Additional observations from a re-analysis of the deposited data

How the results depend on the processing

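The count of detected members was 28, and 29, 22, 31 and 26 with limits of 0.5 CPM, 2 CPM, 10 counts and 1 TPM in every library, and 28 to 29 when each library was left out in turn. The 10-count limit added Rspo1, Sfrp5 and Wnt9b, and the TPM limit dropped Fzd3 and Fzd5. No member was called as differing between libraries under any of the 7 alternatives. Calls over all genes were few as well, from 17 of 12694 with library 1 left out to 131 of 12435 with at least 30 counts in any library. At shares this small, 0 calls among so few members is no result about the members. At an unadjusted p under 0.05 the alternatives gave 2 to 6 members, without shares over all genes to set beside these counts. The antagonist to ligand log2 ratio of 0.11 was -0.0060 with the longest transcript and -0.063 with no length correction, and 0.08 to 0.14 when each library was left out. With Frzb among the antagonists, chosen after seeing the data, it was 0.28, and 0.17 and 0.10 with those length corrections. Wnt5a/Wnt5b was 1.19 with no length correction. Of the other pair ratios 90 stayed within 1 SD and 17 moved by more without changing sign, all but 1 of them with another length correction. Role sums stayed within 1 SD in 46 cases and moved in 15, 13 of them with another length correction alone and 2 with Frzb, and all 84 counts of other pathway genes stayed within 1.5 times. The reversals came from the length used, the only setting changed. No paired analysis was possible because the libraries form a single group. Genes under about 10 counts cannot be ranked at this depth.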

Other observations

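Frzb encodes a secreted Frizzled-related protein but has a symbol that the member rule does not take. It had 87, 67 and 95 counts (3.03 ± 0.677 TPM), close to Sfrp2, and was detected in every library. Adding it to the secreted antagonists moved their log2 ratio to the ligands from 0.11 to 0.28.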
